A study of Mus musculus with 48 samples.

Results

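S100 proteins are small calcium-binding proteins with EF-hand loops. Most form dimers that take up calcium and then hold a partner protein, such as an annexin or a myosin, and some are released and bind receptors such as Tlr4 and Ager. S100a8 and S100a9 pair to form calprotectin, an abundant protein of the neutrophil cytosol, while S100b is a familiar marker of astrocytes and other glia. The 9 genes S100a1, S100a4, S100a6, S100a8, S100a9, S100a10, S100a11, S100a13 and S100b were taken by symbol, and all 9 are counted in both tables of the study, which hold 20300 and 14363 genes. Cells were sorted into classes by markers from outside the family, so the S100 levels had no part in that choice.

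The tumors grew from GL261 cells, a mouse glioblastoma line, that carried an shRNA against Selp, the P-selectin gene (shSELP), or a negative control shRNA (shNC). They were implanted in the striatum of male C57BL/6 mice, 6 weeks old per the study's methods, which also say that 3 brains were pooled per group. Per the labels, a set of single-cell libraries (the mix) was taken on day 16, with 2 libraries per group. It joins CD11b+ cells, cells positive for CD45 alone and what remained after the sorts. The other set was taken on day 21 and holds CD11b+ cells alone, with 1 library per group. The methods name another day, and the labels were followed. The shRNA sits in the implanted cells, so host cells keep their own Selp, the amounts of sorted cells in the mix were set at the bench, and the 2 libraries of a group may be technical replicates of 1 pool.

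The mix libraries held 22945972 UMIs in shNC 1, 22626413 in shNC 2, 17398121 in shSELP 1 and 25589350 in shSELP 2, from 2289 to 2297 cells each. The CD11b+ libraries held 12628177 UMIs for shNC and 11445676 for shSELP. The S100 genes took 0.25%, 0.256%, 0.336% and 0.274% of the UMIs in the 4 mix libraries, and 0.180% and 0.109% in the CD11b+ ones. Libraries shared 5 cell barcodes in the mix and 3 in the CD11b+ set. Of the 8 entries of the CD11b+ shSELP library, 7 carry a description that names the negative control, while their titles, genotypes and sources name the knockdown, and the latter were followed.

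The knockdown target could not be checked in the tumor gate. Selp had 1, 1, 0 and 1 UMIs there in shNC 1, shNC 2, shSELP 1 and shSELP 2, which is 3 of 9436509 UMIs, and the 0 allows up to 3.36 CPM (counts per 1e6 UMIs) if 3 UMIs are taken as the floor. Selp is best known from endothelium and platelets, and the vascular gate held 47.3 and 35.7 CPM in the shNC libraries against 7.87 and 9.99 CPM in the shSELP libraries, from 42 UMIs in all. These groups did not overlap, but the vascular gate itself held 27, 45, 431 and 101 cells in the 4 libraries, and the part of that imbalance was not tested.

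A cell entered a class when it held at least 3 of that class's markers and a larger share of them than of any other list. Of 8726 mix cells kept, 6963 were placed, among them 65 in the neutrophil gate, 1295 in the monocyte, 1056 in the macrophage, 830 in the microglia, 1821 in the T cell, 604 in the tumor and 604 in the vascular gate, the last joining 479 endothelial and 125 mural cells. The neutrophil gate is thin, with 10, 14, 25 and 16 cells per library. Median depth ran from 2541 UMIs per cell in the neutrophil gate to 16397 in the tumor gate. UMIs were summed per class and library, and levels are given as CPM of that sum, always in the order shNC 1, shNC 2, shSELP 1, shSELP 2. Levels are mainly compared for 1 gene across classes. Comparisons between genes, such as the ratio of S100a8 to S100a9, are of UMIs as counted. CPM are not scaled for the make-up of a class, as the edgeR fit is by TMM, so a step between classes in CPM can be absent in the fit.

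**Figure D1:**
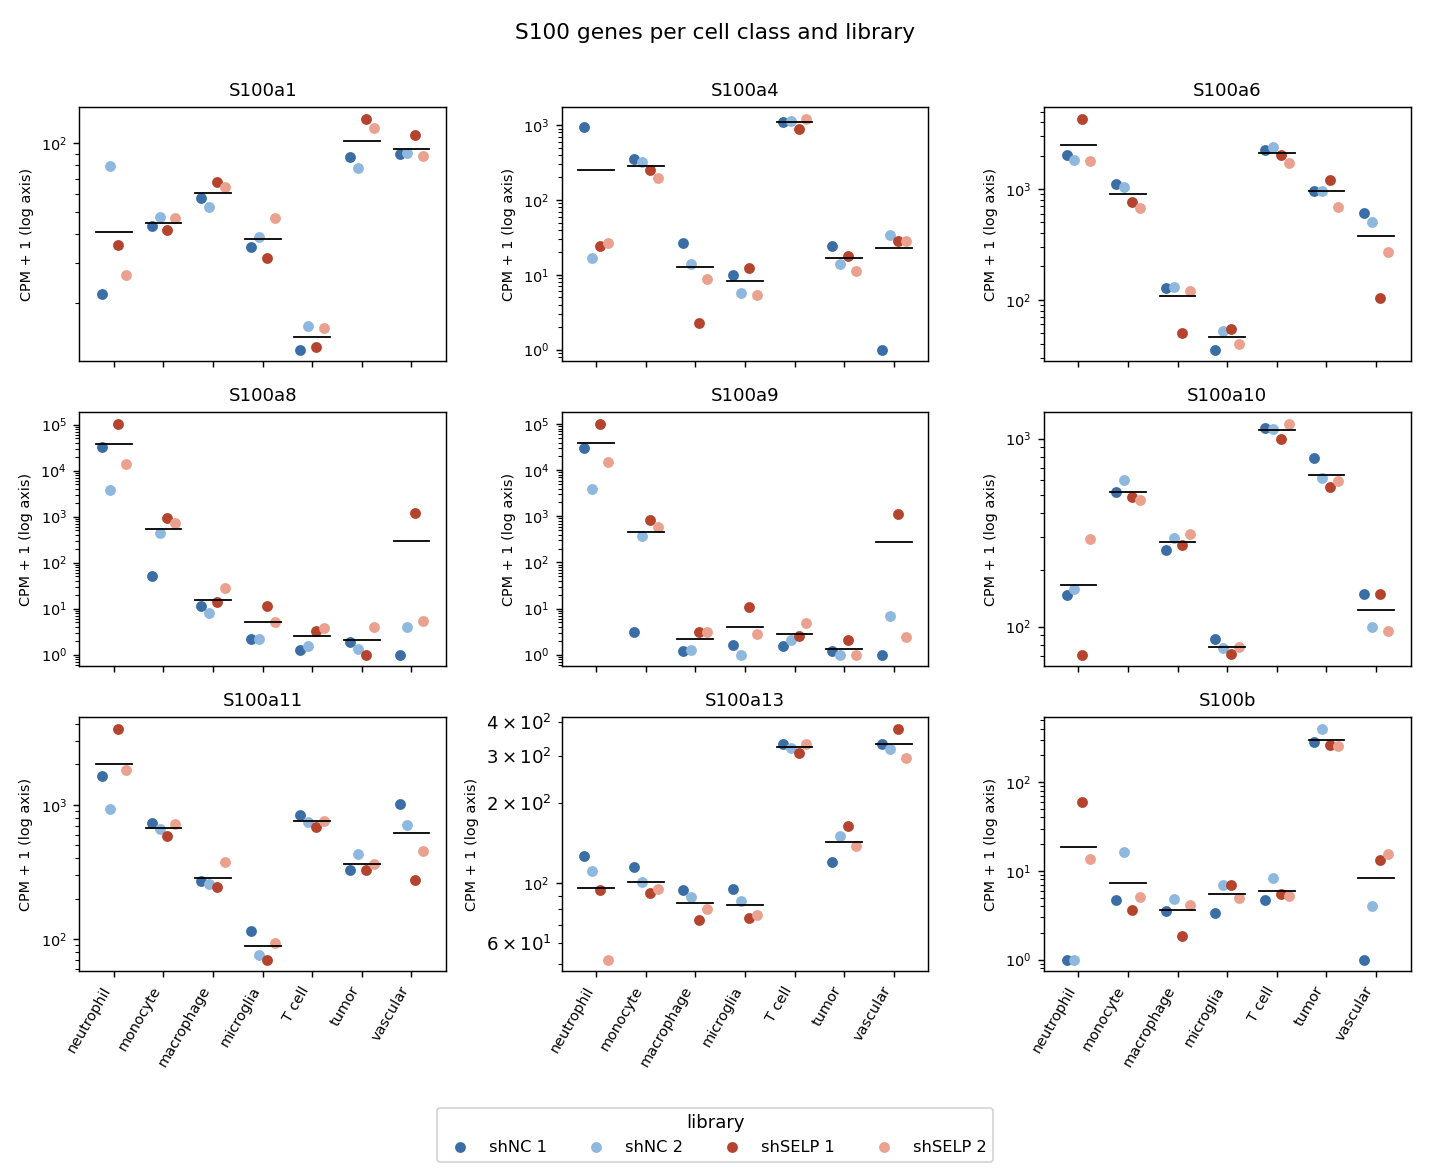
CPM plus 1, on a log axis, of each S100 gene in the 7 gates, with 1 point per mix library and a bar at the mean of 4 libraries. S100a8 and S100a9 peak in the neutrophil gate (means 38607 and 38286 CPM), S100a4 in the T cell gate (1093 CPM) and S100b in the tumor gate (299 CPM).

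The 6 class pairs tested went through edgeR's quasi-likelihood test in 1 fit of 10521 genes with the library as a term, and p-values were adjusted over all genes by Benjamini-Hochberg (called: adjusted p under 0.05). Between the neutrophil and the monocyte gate, 5 of 9 S100 genes were called, 4 of them higher in neutrophils, against 10.6% of all genes, and the median log2 difference was 1.22 for the S100 genes and -0.55 for all genes. That lean depends on the tool: of all genes called 231 of 1110 were higher in neutrophils by edgeR and 776 of 930 by DESeq2. From the macrophage to the monocyte gate, 7 of 9 were called, each higher in monocytes, against 9.36% of all genes. From microglia to macrophages, 4 of 9 were called, each higher in macrophages, against 20.1%. These 3 counts lie above their backgrounds.

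The other 3 comparisons set broader cell types against macrophages, and there most genes differed. In T cells 7 of 9 S100 genes were called (5 higher) against 59.9% of all genes, in tumor cells 4 of 9 (3 higher) against 68.1%, and in vascular cells 6 of 9 (5 higher) against 61.1%. These counts are near or below the background, so they say nothing about the family as a group, and the single genes carry the description. Of the 33 called differences over the 6 comparisons, 21 were called in every alternative run and 12 were lost in at least 1. Leaving out 1 library moved the number of S100 genes called to 3 without shSELP 1 for neutrophils against monocytes, to 4 without shNC 1 for monocytes against macrophages, and to 4 without shNC 1 and without shSELP 1 for vascular cells against macrophages. The number of all genes called moved from 1110 to 656 and 650 without shSELP 1 or shSELP 2 in the first comparison, from 985 to 464 and 418 without shNC 1 or shNC 2 in the second, and from 2113 to 1264 without shSELP 2 in the third.

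S100a8 and S100a9, the partners in calprotectin, were by far most abundant in the neutrophil gate. S100a8 stood at 32377, 3713, 104754 and 13583 CPM there, and S100a9 at 31087, 3870, 102865 and 15324 CPM. Both genes were highest in shSELP 1 and lowest in shNC 2, and the 2 groups overlapped. The mean of S100a8 was 38607 CPM with an SD of 45673 (n = 4), 71.5-fold above the next class, the monocyte gate, and that of S100a9 was 85.0-fold above it. The spread between libraries was so wide that neither gap was larger than the summed SDs of the 2 classes. In the fit, which takes out the library, S100a8 was higher in neutrophils than in monocytes by 5.35 on the log2 scale (SE 0.81, edgeR adjusted p = 1.77e-05) and S100a9 by 5.78 (SE 0.88, edgeR adjusted p = 1.66e-05). Without shNC 1 these became 4.25 and 4.40, without shNC 2 they became 6.41 and 7.20, and without shSELP 2 the S100a9 difference became 6.59, all still called.

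Single cells of the neutrophil gate varied as widely as their libraries. Of 65 cells, 48 held both transcripts, 1 held S100a9 alone and 16 held neither, and S100a8 ran from 0 to 1187 UMIs per cell around a median of 52. The 16 held Il1r2 and Hdc in 16 each and Csf3r in 15, but Retnlg in 0, Mmp8 in 1 and Cxcr2 and Mmp9 in 3 each. Of the 49 with S100a9, 30 held Retnlg. Whether the 16 are neutrophils was not tested. They held 140445 of the 276080 UMIs of the gate, at a median of 8308 UMIs per cell against 2147 in the 49. The CPM of the gate include them. Ngp, a granule protein gene of maturing neutrophils, was found in 10 of the 65 cells, 8 of them in shSELP 1. Those 10 cells held 8025 of the 11844 S100a8 UMIs of the gate, and S100a8 made up 16.7% of all their UMIs, against 1.67% in the 55 cells without Ngp. Cells at the edge of the gate held little. The 20 cells with exactly 3 markers, 6, 9, 2 and 3 per library, held 142929 of the 276080 UMIs of the gate, with S100a8 at 1441 CPM, against 87405 CPM in the 45 cells with 4 or more. The part of these 20 cells in the levels of the libraries was not tested.

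The 7 neutrophil markers of the neutrophil gate summed to 5514, 3178, 26856 and 7154 CPM, with none at 0 in any library and Retnlg on top except in shNC 2, where it was Il1r2. The list of 7 granule genes summed to 17146, 47.2, 31229 and 3609 CPM, with Camp, Ltf, Ngp and Camp on top and 3, 4, 2 and 3 of them at 0. The granule genes were thus highest and lowest in the same libraries as S100a8 and S100a9, and their part in that spread was not tested.

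Outside the neutrophil gate, a few cells held nearly all S100a8 and S100a9. The monocyte gate stood at 50.7, 444, 922 and 742 CPM of S100a8 and at 2.03, 366, 833 and 600 CPM of S100a9. Of its 1295 cells, 5 with over 20 UMIs of either gene, a limit set after seeing the data, held 6768 of 7352 S100a8 UMIs, or 92.1%. The top 3 of these 5 held 1259, 1670 and 3755 S100a8 UMIs, 1 each in shNC 2, shSELP 1 and shSELP 2, and each also held Ngp, at 266, 423 and 844 UMIs, and Lcn2, a granule protein that binds bacterial iron carriers. The vascular gate had 2 cells over the limit, both in shSELP 1, with 2244 and 28 UMIs of S100a8 and 2079 and 44 of S100a9, and Ngp in the first (380 UMIs). Its granule genes summed to 65.1, 38.7, 863 and 20 CPM. The neutrophil markers summed in the monocyte gate to 333, 292, 253 and 306 CPM, with Il1r2 on top and 1, 1, 0 and 1 of the 7 at 0. Cell by cell, the top 3 monocyte-gate cells held 1, 4 and 3 of the 7 markers, and the other 2 held 4 and 3. The 2 vascular-gate cells held 3 and 5. None of these cells was among the 76 doublet calls of Scrublet.

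**Figure D2:**
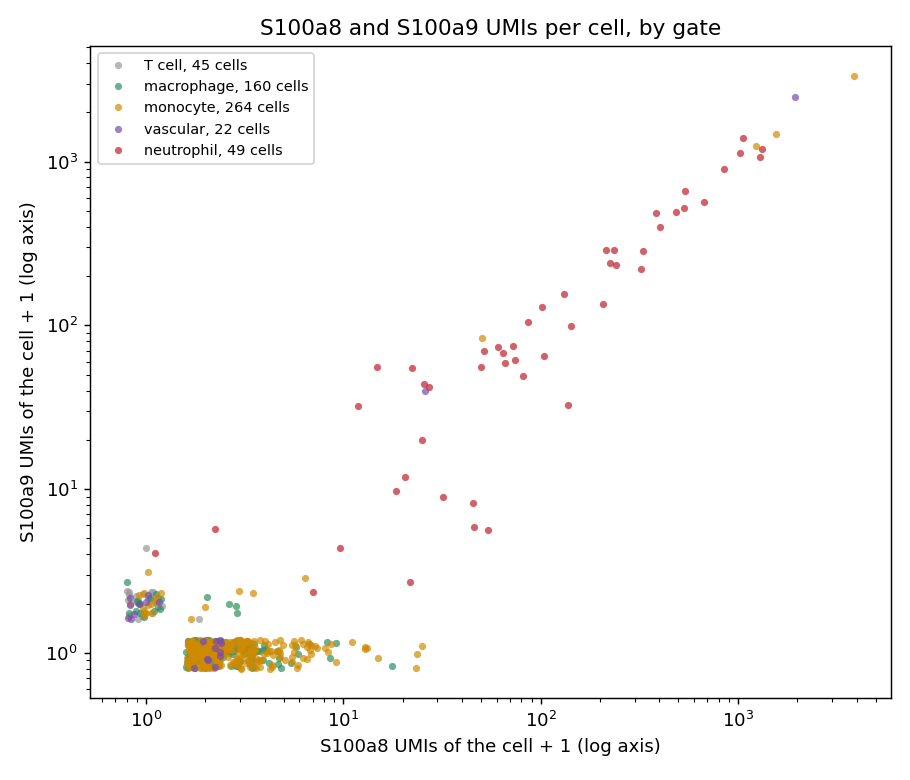
S100a8 against S100a9 UMIs of single mix cells, each plus 1 with a small jitter, on log axes, for cells of 5 gates with at least 1 UMI of either gene. Neutrophil-gate cells lie along the diagonal up to 1187 S100a8 UMIs with 3 monocyte-gate cells and 1 vascular-gate cell at its upper end, while most other monocyte-gate and macrophage-gate cells hold S100a8 without S100a9.

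Where the remaining monocytes held S100a8, it was mostly without its partner. Without the 5 cells, the monocyte gate held S100a8 at 50.7, 45.2, 29.4 and 48.3 CPM, and S100a9 at 2.03, 0.318, 1.58 and 2.22 CPM. The 4 libraries then lay close together for S100a8 and the groups overlapped. Summed over the libraries, these cells had 584 S100a8 UMIs to 21 of S100a9, a ratio of 27.8, and macrophages 265 to 18, a ratio of 14.7. Such small S100a9 counts leave the ratios loose: by library it ran 56.0, 29.0, 6.00 and 13.6 in macrophages, and in the CD11b+ set it was 6.79 in monocytes and 7 in macrophages. In the neutrophil gate, with all its cells, the ratio was 1.01, and the monocyte gate with all cells stood at 1.22. Without its 43 cells over the same limit, the neutrophil gate had 54 UMIs to 33, a ratio of 1.64. Of the 1295 monocyte-gate cells, 241 held S100a8 alone and 9 held both, and of the 1056 macrophage-gate cells, 143 held S100a8 alone and 4 held both. The T cell gate, which should lack both genes, had 22 UMIs of S100a8 and 28 of S100a9, so the excess of S100a8 seen in monocytes and macrophages was absent there.

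Cells with an S100a8 UMI made up 73.8% of the neutrophil gate, 19.3% of the monocyte gate and 13.9% of the macrophage gate, at median depths of 2541, 8706 and 15996 UMIs. In the T cell gate the share was 1.10% at a median of 6069 UMIs, and in the tumor gate 1.16% at 16397 UMIs. Cells were then thinned to 2000 UMIs, and the 767 mix cells with fewer were left out, so that 43 of 65 cells of the neutrophil and 472 of 604 of the vascular gate remained. After thinning the shares were 69.8%, 7.55% (95% exact interval 6.17 to 9.14) and 2.20% (1.40 to 3.28) in the first 3 gates. They were 0.171% (0.0353 to 0.499) in T cells and 0 of 588 (0 to 0.625) in tumor cells. Monocytes and macrophages lay above these 2 gates at equal depth. The macrophage interval overlapped those of dendritic cells (1.28%, 0.264 to 3.69), vascular cells (1.27%, 0.468 to 2.75) and microglia (1.03%, 0.446 to 2.02), and shSELP 2, at 5.08%, carried much of it, with 1.16% to 1.34% in the other 3 libraries. That of monocytes lay above all 3.

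For S100a9 the thinned shares were 69.8% in neutrophils, 0.545% in monocytes, 0.0957% in macrophages and 0.513% in T cells, so S100a9 in monocytes and macrophages did not stand clear of the T cell background.

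In the class tests, S100a8 was higher in monocytes than in macrophages by 5.02 on the log2 scale (SE 0.78, edgeR adjusted p = 2.18e-05) with all cells. It was still called without the cells high in S100a8 or S100a9, an alternative chosen after seeing the data, but only by 1.82 (edgeR adjusted p = 0.00982), and without shNC 2 by 4.41. S100a9 was higher in monocytes by 8.74 (SE 1.09, edgeR adjusted p = 2.55e-07), by 7.88 without shNC 2, and by 0.57 without the high cells, where it was no longer called (edgeR adjusted p = 0.694). The neutrophil excess over monocytes became 8.82 for S100a8 and 13.85 for S100a9 without those cells. In the neutrophil gate, 43 of 65 cells passed the same limit and were kept. A larger excess was thus fixed by the choice of cells, and nothing is drawn from it. In T cells S100a8 was lower than in macrophages by a log2 difference of -3.92, and in tumor cells by -4.60, or -5.19 without shNC 1, all called. The vascular excess of both genes, 2.35 for S100a8 and 6.13 for S100a9 on the log2 scale, rested on the 2 high cells of shSELP 1. Without that library the differences were -2.88 and 0.75, without the high cells -3.14 and 0.10, and without shSELP 2 they were 3.41 and 7.50.

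S100a4, which binds non-muscle myosin and is known from motile cells, was a T cell, dendritic and monocyte gene in these tumors. The T cell gate held 1109, 1149, 887 and 1226 CPM, the monocyte gate 355, 323, 251 and 193 CPM and the macrophage gate 25.5, 12.9, 1.28 and 7.92 CPM. Each T cell library was above each monocyte library, and each monocyte library above each macrophage library. Ordered by mean over 10 classes, T cells (1093 ± 146, SD, n = 4) and dendritic cells (730 ± 232) did not differ beyond their spread, nor did monocytes (280 ± 72.6) and neutrophils (250 ± 457), while dendritic cells stood above monocytes. From neutrophils through NK cells (87.6 ± 108) and macrophages (11.9 ± 10.2) down to microglia at 7.33 CPM no neighbours differed beyond their spread. The NK libraries held 19.7, 58.4, 24.8 and 247 CPM. S100a4 was 23.7-fold higher in monocytes than in macrophages (log2 4.57, SE 0.51, edgeR adjusted p = 3.21e-08) and 76.5-fold higher in T cells (log2 6.26, SE 0.54, edgeR adjusted p = 4.63e-13), called in every alternative. At 2000 UMIs per cell, 62.9% of T cells, 26.3% of monocytes and 2.58% of macrophages held an S100a4 UMI, beside 3.57% of tumor cells and 1.42% of microglia.

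S100a6, calcyclin, a partner of annexins and of the ubiquitin ligase adaptor Cacybp, was the family member with the most UMIs in the mix, 67716. The neutrophil gate held 2018, 1809, 4315 and 1779 CPM, the T cell gate 2252, 2401, 2026 and 1709 CPM, and the macrophage gate 128, 130, 49.5 and 120 CPM. Neutrophils and T cells overlapped, and macrophages lay far below both. The mean order was neutrophils (2480 ± 1228), T cells (2097 ± 301), dendritic cells (1099 ± 139), tumor cells (950 ± 218), monocytes (900 ± 209), NK cells (655 ± 113), vascular cells (372 ± 229), macrophages (107 ± 38.6), B or plasma cells (55.1) and microglia (44.8), and the 1 gap beyond the spread of its neighbours was that between T cells and dendritic cells. S100a6 was 8.25-fold higher in monocytes than in macrophages (edgeR adjusted p = 4.99e-08), 15.7-fold higher in T cells (edgeR adjusted p = 1.99e-12) and 5.67-fold higher in tumor cells (edgeR adjusted p = 3.44e-08), called in every alternative.

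Smaller steps of S100a6 leaned on single libraries. Its log2 difference between neutrophils and monocytes was 1.22 (edgeR adjusted p = 0.0149) and lost the call without shSELP 1 (0.56, adjusted p = 0.116) and without shSELP 2 (1.21, adjusted p = 0.0710). From microglia to macrophages S100a6 was higher by 1.34 (edgeR adjusted p = 0.00370), and without shSELP 2 by 1.17 with no call (adjusted p = 0.0626). From macrophages to vascular cells it was higher by 1.06 (edgeR adjusted p = 0.00773), with no call without shNC 1 (0.83) or without shNC 2 (0.89), in thinned cells (0.21), or in endothelial cells alone (0.44), an alternative chosen after seeing the data. Mural cells, the pericytes and smooth muscle of vessels, held S100a6 at 1594, 1117, 167 and 675 CPM and endothelial cells at 363, 284, 94.8 and 81.0 CPM, and in each library the mural value was the higher.

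S100a10, which joins annexin A2 in a membrane complex, was highest in T cells among the 10 classes ordered. The T cell gate stood at 1134, 1125, 999 and 1200 CPM, the monocyte gate at 522, 601, 489 and 471 CPM and the macrophage gate at 256, 294, 270 and 309 CPM. No library of 1 class reached the range of the next. The means fell into steps: T cells (1114 ± 83.9) above NK cells (745 ± 56.9), tumor cells (639 ± 105) and monocytes (521 ± 57.4), which did not part beyond their spread, then macrophages (282 ± 24.1) through dendritic, B or plasma cells and neutrophils to vascular cells (122 ± 29.9), and microglia (77.2 ± 5.87) below them. S100a10 was higher in T cells than in macrophages by 1.68 (SE 0.24) and in macrophages than in microglia by 1.96 (SE 0.24), and lower in neutrophils than in monocytes by a log2 difference of -1.96 and in vascular cells than in macrophages by -1.81, called in every alternative (edgeR adjusted p from 6.18e-05 to 5.51e-08). With classes from clusters the step from microglia was 3.36. The step from macrophages to monocytes, 0.88 (edgeR adjusted p = 0.0105), lost the call without shNC 1 (adjusted p = 0.252) and without shNC 2 (adjusted p = 0.137). That from macrophages to tumor cells, 0.55 (edgeR adjusted p = 0.0347), lost it without shNC 1 (0.33), without shNC 2 (0.55, adjusted p = 0.115) and with classes from clusters (0.22).

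S100a11, a partner of annexin A1, was highest in neutrophils and dendritic cells among the 10 classes ordered. Outside that order, the fibroblast gate, 38 cells, held 1342, 4878, 758 and 1570 CPM, where the value of shNC 2 is that of 1 cell. Mural cells averaged 1239 CPM over the 4 libraries. The neutrophil gate held 1644, 928, 3697 and 1817 CPM and the microglia gate 113, 74.6, 69.2 and 92.6 CPM. All microglia libraries lay below all libraries of the neutrophil gate. Neutrophils (2021 ± 1181) and dendritic cells (1143 ± 92.4) did not part beyond their spread. Below them came T cells (758 ± 64.8), monocytes (672 ± 68.5), vascular cells (611 ± 320) and NK cells (487 ± 69.0), then tumor cells (359), macrophages (286) and B or plasma cells (197), and last microglia (87.4), with no gap inside each of these runs. The fit called neither vascular (0.41, edgeR adjusted p = 0.228) nor tumor cells (-0.32, edgeR adjusted p = 0.328) apart from macrophages. The first was called by DESeq2 (0.85) and without shSELP 1 (0.64), and the second with classes from clusters (-0.57). S100a11 was higher in macrophages than in microglia by 1.82 on the log2 scale (SE 0.30, edgeR adjusted p = 7.56e-06), or 3.40 with classes from clusters, and in T cells than in macrophages by 1.09 (SE 0.28, edgeR adjusted p = 0.000983). Its step from monocytes to neutrophils, 1.34 (edgeR adjusted p = 0.00239), was 0.61 with no call without shSELP 1, and that from macrophages to monocytes, 1.22 (edgeR adjusted p = 0.00321), missed the call without shNC 1 (1.13, adjusted p = 0.0595).

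S100a13, which is known for helping the release of FGF1 and interleukin 1 alpha, which lack a signal peptide, was highest in vascular and T cells among the 10 classes ordered. The vascular gate held 331, 318, 378 and 293 CPM, the T cell gate 332, 319, 307 and 330 CPM and the macrophage gate 93.2, 87.9, 72.1 and 79.0 CPM. Vascular and T cells overlapped, and each library of both lay above each macrophage library. Below them the order was NK cells (207 ± 42.7), tumor cells (142 ± 18.7), then monocytes (99.8 ± 10.1), neutrophils, dendritic cells, macrophages and microglia (81.8 ± 9.55) with no gap beyond the spread, and B or plasma cells (52.4 ± 17.6). The lead of tumor cells over macrophages was not called in the fit (0.13, edgeR adjusted p = 0.459), though it was by DESeq2 (0.48). S100a13 was higher than in macrophages by 1.65 in T cells (SE 0.15, edgeR adjusted p = 8.67e-13) and by 1.42 in vascular cells (SE 0.15, edgeR adjusted p = 2.02e-10), called in every alternative. Within the vascular gate, endothelial cells held 390 ± 14.7 CPM and mural cells 125 ± 17.8 CPM. The small oligodendrocyte gate, 64 cells, held 317, 184, 504 and 426 CPM, a mean of 358, between endothelial and T cells.

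S100a1, best known as a regulator of calcium handling in muscle, had its highest mean CPM in tumor and vascular cells among the 10 classes ordered, a lead that the fit did not show. The tumor gate held 86.1, 76.8, 127 and 115 CPM, the macrophage gate 56.8, 51.7, 66.6 and 63.4 CPM and the T cell gate 11.5, 14.9, 11.8 and 14.5 CPM. No library of 1 of these gates reached into another. Tumor (101 ± 23.5) and vascular cells (93.0 ± 9.41) led, then macrophages (59.6 ± 6.66), then monocytes (43.9), neutrophils (40) and microglia (37.1), then dendritic (21.1), NK (15.4), T (13.2) and B or plasma cells (7.86), with no gap beyond the spread inside these 4 runs. In the fit S100a1 did not differ from macrophages in tumor (0.09, edgeR adjusted p = 0.610) or vascular cells (0.08, edgeR adjusted p = 0.718), nor in monocytes (-0.43, edgeR adjusted p = 0.0725), where thinned cells had a call. DESeq2 called all 3 (0.45, 0.48 and -0.49), and the vascular value was called in endothelial cells alone (0.60), while the tumor value was -0.01 with 4 markers and -0.02 with classes from clusters.

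S100a1 was lower in T cells than in macrophages by a log2 difference of -2.46 (SE 0.17, edgeR adjusted p = 1.05e-15) and higher in macrophages than in microglia by 0.78 (SE 0.16, edgeR adjusted p = 0.000286), called in every alternative. In the small oligodendrocyte gate, 64 cells, it stood at 362, 300, 499 and 624 CPM, above every library of the 7 main gates.

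Among the 7 main gates, S100b marked the tumor gate. It stood at 285, 399, 262 and 251 CPM in tumor cells, at 2.56, 3.83, 0.854 and 3.13 CPM in macrophages and at 0, 2.98, 12.1 and 14.3 CPM in vascular cells, where the 0 allows up to 17.8 CPM. All tumor libraries lay far above those of the other 2 gates. The tumor mean, 299 ± 68.2, was beyond the spread of the next of the 10 classes ordered, neutrophils, at 17.8 ± 27.7 from 6 UMIs, 5 of them in shSELP 1, while the other 9 classes did not part from their neighbours. S100b was 68.0-fold higher in tumor cells than in macrophages (log2 6.09, SE 0.27, edgeR adjusted p = 9.59e-22), called in every alternative. At 2000 UMIs per cell, 38.3% of tumor cells held a UMI of S100b, against 0.670% to 1.27% in the monocyte, macrophage, microglia, T cell and vascular gates (unthinned 81.8% against 3.15% to 4.94%). The small oligodendrocyte gate, outside that order, held 430, 197, 605 and 603 CPM, a mean of 459 and above that of tumor cells, and the astrocyte gate, 24 cells, 141, 86.8, 496 and 85.2 CPM.

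Low S100b levels gave fragile calls. The difference between monocytes and macrophages, 1.14 (edgeR adjusted p = 0.0419), was lost without shNC 1 (adjusted p = 0.222), without shNC 2 (0.55), without shSELP 2 (adjusted p = 0.0548), in thinned cells and with DESeq2 (adjusted p = 0.0990). That between vascular cells and macrophages, 1.43 (edgeR adjusted p = 0.00875), was lost without shNC 1 (adjusted p = 0.0636), without shSELP 1 (0.99), in thinned cells (0.97), with classes from clusters (0.85) and in endothelial cells alone (0.72). S100b had 33 UMIs in the whole CD11b+ set, against 3975 in the mix.

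The second question is whether the tumor's Selp shRNA went with other S100 levels in the cells around and in it. It was tested in each of the 7 gates with 2 libraries against 2, and the 7 comparisons use the same 4 libraries. With 2 libraries per group, groups often fail to overlap without any true difference. The share of all genes whose groups did not overlap is not given. By edgeR's quasi-likelihood test with Benjamini-Hochberg adjustment, no S100 gene was called in any gate.

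**Figure D3:**
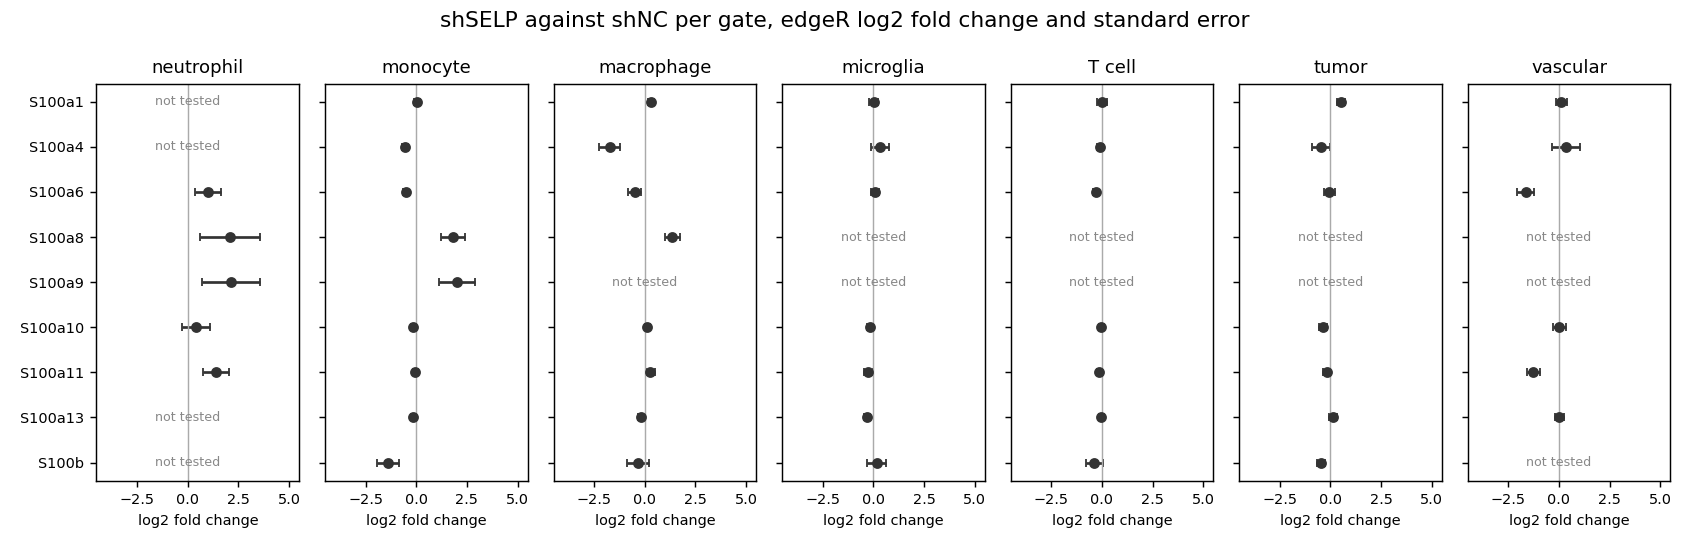
Log2 fold change of each S100 gene, shSELP against shNC, with its standard error, in 7 gates of the mix (2 libraries per group, edgeR). S100a8 and S100a9 have the widest errors, 1.47 and 1.43 in the neutrophil gate, and no value passed an adjusted p of 0.05.

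In monocytes, S100a6 and S100a4 were lower and S100a8 and S100a9 higher in the shSELP libraries, with no call by edgeR. S100a6 stood at 1110, 1044, 770 and 677 CPM, and S100a4 at 355, 323, 251 and 193 CPM. In both genes each shSELP library lay below each shNC library. The log2 differences were -0.52 for S100a6 (SE 0.11, edgeR adjusted p = 0.0795) and -0.57 for S100a4 (SE 0.14, edgeR adjusted p = 0.190). Both were called by DESeq2 (adjusted p = 0.00406 and 0.0429) and without shSELP 1 (edgeR adjusted p = 0.0309 and 0.0316), and S100a6 also without the cells high in S100a8 or S100a9 (edgeR adjusted p = 0.0446). S100b, at 3.65, 15.2, 2.58 and 4.04 CPM, had a log2 difference of -1.39 (SE 0.54, edgeR adjusted p = 0.483), with groups that overlapped. S100a8 and S100a9 were higher by 1.81 and 2.01 on the log2 scale with edgeR adjusted p of 0.345 and 0.571. Without shNC 1 they were called at 0.99 and 1.05, and without shNC 2 at 4.06 and 8.46, but without the high cells S100a8 was at -0.16 (SE 0.196), so the direction rested on those 5 cells.

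Counted over the gate, 0 of 9 S100 genes were called by edgeR in monocytes against 0.475% of all genes, 5 reached p < 0.05 before adjustment (769 of all 8848 genes), and 2 were called by DESeq2 (28 of all 15679 genes). Leaving out shNC 1, shNC 2 or shSELP 1 gave 2 called S100 genes each, and leaving out shSELP 2 gave 0. Of all genes tested 42 were called, and 34, 16, 83 and 60 without shNC 1, shNC 2, shSELP 1 and shSELP 2.

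Of 5 granule genes tested in monocytes 2 were called. Lcn2 rose from 8.92 and 22.8 CPM to 77.4 and 52.2 CPM (edgeR adjusted p = 0.0126), and Ltf, lactoferrin, from 2.43 and 11.1 CPM to 48.5 and 26.8 CPM (edgeR adjusted p = 0.0392). The log2 differences were 1.98 for Lcn2 and 2.35 for Ltf. Ngp and Camp, at 2.11 and 1.94, were not called, and Prtn3 leaned the other way at -0.54 (13.8, 7.92, 4.13 and 8.46 CPM, edgeR adjusted p = 0.754). Ltf lost the call without shNC 1 (1.75, adjusted p = 0.0872) and without Scrublet calls (adjusted p = 0.0583) and was at 3.87 without shNC 2, where Lcn2 was at 2.83, and DESeq2 called neither. Neither was called with classes from clusters or in thinned cells, and with 4 markers Ltf was not (adjusted p = 0.0730). Without shNC 1 Ngp and Camp were called beside Lcn2 (3 of 5), and without shNC 2 all 4 were. Without the high cells Lcn2 was at 0.45 (edgeR adjusted p = 0.820). There the monocyte gate held Lcn2 at 8.92, 3.82, 6.31 and 9.07 CPM and Ltf at 2.43, 0.636, 1.05 and 1.11 CPM, and the groups overlapped for both. The 7 granule genes summed to 25.9, 284, 661 and 528 CPM with all cells, with Prtn3 on top in shNC 1 and Camp in the others, and to 25.9, 12.7, 12.1 and 18.7 CPM without the high cells.

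In macrophages, S100a4 was lower and S100a8 higher in the shSELP libraries, with no call by edgeR. S100a4 stood at 25.5, 12.9, 1.28 and 7.92 CPM, from 139, 54, 3 and 43 UMIs, and S100a8 at 10.3, 6.94, 12.8 and 27.6 CPM. The groups did not overlap in either gene, and shSELP 1 was lowest in S100a4 and shSELP 2 highest in S100a8. Log2 differences were -1.74 for S100a4 (SE 0.54, edgeR adjusted p = 0.246) and 1.36 for S100a8 (SE 0.37, edgeR adjusted p = 0.206). S100a4 was called without shNC 2 (-2.15, adjusted p = 0.0251), S100a8 without shSELP 1 (1.74, adjusted p = 0.0360), and both with classes from clusters (adjusted p = 0.0267 and 0.0297).

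Low counts of S100a8 leaned the same way in the T cell and microglia gates. T cells, which should lack it, held 0.287, 0.542, 2.22 and 2.85 CPM, and microglia 1.17, 1.2, 10.4 and 3.99 CPM, with no overlap of the groups in either. Other gates showed no such lean. S100a8 had 4, 1, 0 and 2 UMIs in tumor cells and 1, 1, 0 and 4 in dendritic cells. B or plasma cells held 0, 1, 1 and 0, and NK cells 0 in each library. S100a9 was at 0.183, 0.239, 2.13 and 2.03 CPM in macrophages and 0.573, 1.08, 1.48 and 3.95 CPM in T cells. Whether transcripts from outside the cell carry part of the S100a8 difference of macrophages was not tested.

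Counted over the macrophage gate, of 8 S100 genes tested 0 were called by edgeR, against 0.184% of all genes, 3 reached p < 0.05 before adjustment (1242 of all 9794 genes), and 0 were called by DESeq2. Without shNC 2, shSELP 1 or shSELP 2 there was 1 called S100 gene each, S100a4, S100a8 and S100a6, and the number of all genes called moved from 18 to 4, 149, 50 and 43 as shNC 1, shNC 2, shSELP 1 and shSELP 2 were left out in turn.

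The share of macrophages with an S100a8 UMI at 2000 UMIs per cell was 1.34%, 1.23%, 1.16% and 5.08%, so shSELP 2 stood above the other 3 libraries. Unthinned, the shares were 7.98%, 9.80%, 13.6% and 26.7%. In monocytes the thinned shares were 8%, 8.06%, 4.87% and 8.29%, and the groups overlapped. The 7 granule genes summed in macrophages to 4.58, 4.55, 9.82 and 13.1 CPM, with Prtn3 on top in the shNC and Lcn2 in the shSELP libraries, and the 7 neutrophil markers to 176, 136, 97.8 and 141 CPM with Il1r2 on top. The granule sum followed 1 gene, Lcn2, at 0, 1.44, 4.27 and 7.18 CPM (log2 3.26, edgeR adjusted p = 0.162), where the 0 allows up to 0.550 CPM. Prtn3, the other one tested, was level at 3.11, 1.92, 2.99 and 3.13 CPM. Lcn2 leaned the same way in T cells, at 0.860, 1.90, 7.40 and 9.22 CPM (edgeR adjusted p = 0.167), so its lean is not one of macrophages alone.

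In neutrophils, the S100 levels were given above, and both calprotectin genes overlapped between groups. Their log2 differences were 2.08 for S100a8 (SE 1.47) and 2.12 for S100a9 (SE 1.43), each with an edgeR adjusted p of 0.949. Without shSELP 1 they were -0.40 and -0.18, without shNC 1 they were 4.35 and 4.28 with no call, and without shSELP 2 they were called at 2.92 and 2.94. In the fit with a replicate block, which pairs libraries by number, they were called too (2.03 and 2.10, edgeR adjusted p = 0.00574 each), as shSELP is above shNC within each number, but no label says that the numbers pair libraries. S100a11 had groups that did not overlap, at 1.41 on the log2 scale (SE 0.65, edgeR adjusted p = 0.949). Of 5 S100 genes tested 0 were called by edgeR, against 0% of all 1090 genes, 0 reached p < 0.05 before adjustment (37 of all genes), and 0 were called by DESeq2. Without shNC 2 or shSELP 1 there was 1 called gene, S100a4, and without shSELP 2 there were 4, S100a4, S100a8, S100a9 and S100a11, among 77 of all genes, against 6 and 4 without shNC 2 and without shSELP 1. S100a4 had 45, 1, 2 and 2 UMIs in this gate.

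In vascular cells, S100a11 and S100a6 were lower in the shSELP libraries, with no call by edgeR. S100a11 stood at 1012, 702, 274 and 455 CPM and S100a6 at 609, 506, 104 and 267 CPM. In both genes each shSELP library lay below each shNC library. Log2 differences were -1.26 for S100a11 (SE 0.30, edgeR adjusted p = 0.136) and -1.64 for S100a6 (SE 0.42, edgeR adjusted p = 0.146). Both were called by DESeq2 (adjusted p = 0.0150 each) and with the replicate block (-1.28 and -1.75), and S100a6 in endothelial cells alone (-1.87, edgeR adjusted p = 0.0182). Of 6 S100 genes tested 0 were called by edgeR against 0% of 6863 genes, 2 reached p < 0.05 before adjustment (1154 of all genes), and 2 were called by DESeq2 (97 of all 15669 genes). No library left out gave a called S100 gene, while the number of all genes called was 179 without shSELP 1 and 0 without each of the others. Mural cells made up part of the gate, 125 of 604 cells, and their share by library was not the same, so endothelial values stand beside it: S100a11 at 814, 373, 234 and 210 CPM, with no overlap of the groups.

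In tumor cells no S100 gene was called. The groups did not overlap in S100a1, S100b and S100a10, a split whose share over all genes is not given. S100a1 stood at 86.1, 76.8, 127 and 115 CPM, S100b at 285, 399, 262 and 251 CPM and S100a10 at 791, 618, 555 and 591 CPM. Log2 differences were 0.52 for S100a1 (SE 0.19, edgeR adjusted p = 0.314), -0.46 for S100b (SE 0.20, edgeR adjusted p = 0.376) and -0.36 for S100a10 (SE 0.20, edgeR adjusted p = 0.492). Of 7 S100 genes tested 0 were called by edgeR against 0.0599% of all genes, 2 reached p < 0.05 before adjustment (1276 of all 10025 genes), and 0 were called by DESeq2 or by any fit without 1 library, although the number of all genes called went from 6 to 93 without shNC 1 and 402 without shNC 2. Lcn2, alone of the granule list tested here, stood at 3.69, 41.5, 596 and 784 CPM (log2 4.95, edgeR adjusted p = 0.0551) and was called by DESeq2, without shNC 1 and without shNC 2, while S100a8 had 7 UMIs in this gate.

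In T cells, S100a6 was lower in the shSELP libraries but not called, at 2252, 2401, 2026 and 1709 CPM, and the groups did not overlap. Its log2 difference was -0.31 (SE 0.12, edgeR adjusted p = 0.501), and it was called without shSELP 1 (-0.47, adjusted p = 0.0354). Of 7 S100 genes tested 0 were called by edgeR against 0.0300% of all genes, 1 reached p < 0.05 before adjustment (929 of all 10016 genes), and 0 were called by DESeq2. All genes called were 3, and 25, 378, 129 and 300 without shNC 1, shNC 2, shSELP 1 and shSELP 2.

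In microglia, the gate with the largest share of genes called, no S100 gene stood out. Of 7 tested 0 were called by edgeR against 3.83% of all 9077 genes, 0 reached p < 0.05 before adjustment (1750 of all genes), and 0 were called by DESeq2. S100a13 was nearest, at 93.9, 84.9, 73.4 and 74.9 CPM, with groups that did not overlap and a log2 difference of -0.31 (SE 0.16, edgeR adjusted p = 0.298). S100a8 and S100a9 did not pass the filter here. Both were called without the filter and without shSELP 2, and S100a9 alone without shNC 1 and with classes from clusters. In the gate S100a8 had 2, 3, 37 and 9 UMIs and S100a9 had 1, 0, 35 and 4, and 1 cell of shSELP 1 held 29 of the S100a9 UMIs. All genes called went from 348 to 122 without shSELP 1 and 751 without shSELP 2.

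Whether the shSELP difference itself differed between gates was tested as an interaction over 11706 genes, with neutrophils, monocytes, microglia, T cells and tumor cells each against macrophages. The vascular gate had no such test. By edgeR 0 of 9 S100 genes were called in each of 5 tests, against 0% of all genes for neutrophils, monocytes and T cells, 0.00854% for microglia and 0.179% for tumor cells. At an unadjusted p under 0.05 there were 3, 0, 1, 1 and 0 S100 genes for neutrophils, monocytes, microglia, T cells and tumor cells, beside 601, 311, 498, 391 and 1165 of all genes, and DESeq2 was not run for these. S100a4, lower with shSELP in macrophages, had differences of 2.06 for microglia (SE 0.99) and 1.56 for T cells (SE 0.73), each with an edgeR adjusted p of 1. Without shSELP 2, S100a6 and S100a11 were called for neutrophils and S100a6 for tumor cells, among 33 and 20 of all genes. Without shNC 1, shNC 2, shSELP 1 and shSELP 2 in turn, the number of all genes called was 1, 2, 0 and 33 for neutrophils, 0, 2, 2 and 4 for monocytes, 0, 5, 0 and 10 for microglia, 1, 0, 2 and 4 for T cells, and 4, 36, 24 and 20 for tumor cells.

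In the CD11b+ set, with 1 library per group and no test, S100 levels in monocytes were lower with shSELP. S100a4 stood at 1350 CPM in shNC and 543 CPM in shSELP over 526 and 601 cells, a ratio of 0.402 with a conditional binomial interval of 0.372 to 0.435. S100a6 stood at 2038 and 1116 CPM, a ratio of 0.548 (0.517 to 0.579), and 0.515 with TMM scaling. S100a10 had a ratio of 0.683, S100a11 of 0.558, S100a13 of 0.604 and S100a8 of 0.551, each with an interval below 1, while that of S100a1, 0.864 (0.601 to 1.24), spanned 1. With 4 markers that of S100a8, 0.647 (0.389 to 1.06), spanned 1 as well. S100a9 had 19 UMIs in shNC and 0 of 1686962 in shSELP, which allows up to 1.78 CPM. The intervals cover counting error only, and the difference between libraries of 1 group is not known here.

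Macrophages and microglia of that set leaned the same way. In macrophages (702 and 750 cells) S100a4 stood at 41.8 and 16.5 CPM, a ratio of 0.396 (0.292 to 0.530), S100a6 at a ratio of 0.674 (0.602 to 0.755) and S100a8 at 0.786 (0.540 to 1.14). In microglia (342 and 281 cells) S100a11 stood at 72.5 and 40.1 CPM, a ratio of 0.553 (0.405 to 0.749), and 0.336 (0.183 to 0.582) with 4 markers. Among genes with at least 20 UMIs, the median ratio of the S100 genes was 0.558 over 7 in monocytes, 0.740 over 7 in macrophages and 0.687 over 6 in microglia, beside 1.07, 1.07 and 1.06 over all such genes. All 7, 7 and 6 lay below 1, as did 43.2%, 40% and 41.5% of all such genes. S100a4, S100a6, S100a10 and S100a13 in monocytes were lower with shSELP in the libraries of both sets. So were S100a4, S100a6 and S100a13 in macrophages and S100a13 in microglia. None of these mix differences was called by edgeR. Since all those S100 genes lay below 1 in the CD11b+ set, only the lack of overlap in the mix picked the genes named. The share of all genes lower in both sets is not given, so the match is a description. Other values ran in opposite directions. In macrophages S100a8, S100a1 (log2 0.30, edgeR adjusted p = 0.386) and S100a9 were higher with shSELP in the mix, against ratios below 1 in the CD11b+ set, 0.816 (0.667 to 0.995) for S100a1 and 0.140 (0.0156 to 0.595) for S100a9. With 4 markers both of these intervals spanned 1. In monocytes S100a8 and S100a9 were higher in the mix and lower here. Without the cells high in either gene, S100a8 of the mix leaned lower as well, with groups that overlapped. No cell of the CD11b+ monocyte gate passed that limit. The neutrophil gate had 9 and 3 cells here, with 366 and 22 UMIs of S100a8 and 353 and 5 of S100a9.

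Across the 40 sums of class and library in the mix (10 classes by 4 libraries, which share libraries and depth), the S100 genes were compared with each other. On log2 of CPM plus 1, S100a8 and S100a9 had a Pearson r of 0.942, S100a6 and S100a11 of 0.853, S100a4 and S100a6 of 0.664, S100a4 and S100a11 of 0.547, and S100a6 and S100a10 of 0.506. Those of S100a6 with S100a13, S100a4 with S100a10 and S100a9 with S100a11 were 0.463, 0.462 and 0.460. S100b and S100a1 had an r of 0.440, and S100a8 and S100a10 of -0.244. The genes of calprotectin thus stood closest, then S100a6 and S100a11, and below these the values run on without a clear gap. These are descriptions over sums that are not independent, with no test. The sums include the few high cells, which held 92.1% of the S100a8 UMIs of the monocyte gate and 99.5% of those of the vascular gate. Values of r without those cells are not given.

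Among 5566 genes whose mean reached 20 CPM, those most like each S100 gene over the same 40 sums were the following. S100a8 was nearest to Ltf (r = 0.942), Mmp8 (0.894) and Hp (0.893), and S100a9 to Ltf (0.937), Ngp (0.901) and Camp (0.897), all but Hp from the neutrophil lists used here. S100a6 was nearest to its binding partner's gene Anxa2 (0.822), then Arf5 and Emd, and S100a11 to H3f3a (0.743), Glipr2 (0.715) and Anxa2 (0.710). S100a4 was nearest to Arf5 (0.793), Itgae and Ramp3, and S100a10 to Tpt1 (0.829), Lgals1 and Taf10, with Anxa2 not among its top 3. S100a13 was nearest to Ech1 (0.865), Atp10a and Ctla2a, S100a1 to Ltbr (0.845), Cmpk2 and Rras, and S100b to Dbi (0.885), Matn2 (0.785) and Moxd1 (0.784).

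Binding partners and receptors of S100 proteins, a list of 14, had 13 genes in the class tests. Of these 4 were called between neutrophils and monocytes, with Anxa1 higher in neutrophils (log2 2.53) and Bsg, Sugt1 and Ahnak lower (-1.22, -1.26 and -3.70), and 2 between monocytes and macrophages, Anxa2 (1.10) and Ahnak (0.90), both higher in monocytes as S100a4, S100a6, S100a10 and S100a11 were, against 10.6% and 9.36% of all genes. Between macrophages and microglia 7 were called (6 higher in macrophages), and against macrophages 9 in T cells (4 higher), 10 in tumor cells (4 higher) and 7 in vascular cells (5 higher). All genes called were 20.1%, 59.9%, 68.1% and 61.1% in these 4, so the last 3 counts are near the background. Among the named genes Sugt1 lost its call without shSELP 1 (-1.07, adjusted p = 0.0527) and Bsg without shSELP 2 (-1.31, adjusted p = 0.0558), and DESeq2 called neither.

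Anxa2, the partner of S100a10, had means of 517 CPM in T cells, 467 in tumor cells, 319 in monocytes, 147 in macrophages and 71.4 in microglia, and 334 in neutrophils and 317 in vascular cells. The first 5 gates have the order of S100a10, but neutrophils and vascular cells, below macrophages in S100a10, break it. Receptors differed widely: Tlr4 averaged 17.9 CPM in monocytes and 16.2 in macrophages, and Ager had at most 6 UMIs in any of the 7 gates, while Bsg averaged 331 CPM in monocytes, 370 in macrophages and 6232 in vascular cells, and Nptn 80.1 and 78.9 in the first 2. No partner gene was called for shSELP by edgeR in the 7 gates, with 0 of 4, 2 of 13, 2 of 13, 0 of 13, 1 of 11, 3 of 11 and 4 of 11 below 0.05 before adjustment in neutrophils, monocytes, macrophages, microglia, T cells, tumor cells and vascular cells. DESeq2 called 0 in the first 6 gates and 2, Anxa1 (lower) and Bsg (higher), in vascular cells. With 1 library left out there was 1 call each in 6 fits: Anxa1 in neutrophils without shSELP 2 and in T cells without shNC 2, Cd36 in monocytes without shSELP 1 and in microglia without shNC 1, Ahnak in macrophages without shNC 2, and Bsg in vascular cells without shSELP 1.

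Of 7 other S100 genes listed, 6 are counted in the mix, and S100z is not. In the class comparisons S100a16 alone passed the filter, and it stood at 94.6, 117, 110 and 114 CPM in tumor cells and 178, 137, 174 and 148 CPM in vascular cells, against 1.28, 0.718, 2.13 and 1.47 CPM in macrophages. It was 49.4-fold and 74.6-fold higher there than in macrophages (edgeR adjusted p = 2.48e-22 and 8.52e-23), called in every alternative. In the other 4 class comparisons it was not called by edgeR or DESeq2 or without any 1 library, with 0 of 1 below 0.05 before adjustment in each. For shSELP it passed the filter in tumor and vascular cells alone, with 0 of 1 called by edgeR, 0 before adjustment, 0 by DESeq2 and 0 without any 1 library. DESeq2, which tests more genes, called S100a3 in T cells and in tumor cells against macrophages. S100a3 and S100a16 passed the filter of the interaction fit, where 0 of 2 were called by edgeR in each of 5 tests or without any 1 library, with 1 below 0.05 before adjustment for monocytes and 0 for the others. DESeq2 was not run there. S100a3, S100a5, S100a7a, S100a14 and S100g had 97, 36, 12, 19 and 1 UMIs in the mix.

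By position, 8 of the 9 genes lie on chromosome 3 of the mm10 build, between 90511034 (S100a1) and 93564643 (S100a10), with 5 of the other S100 genes inside that span. S100b lies on chromosome 10 at 76253853 to 76261159. S100a8 (90668978 to 90670035, plus strand) and S100a9 (90692632 to 90695721, minus strand) are 22597 bases apart on opposite strands. Neighbours in the cluster were not alike by class: S100a1 ends at 90514392 and S100a13 begins at 90514435, yet T cells were among the highest gates for S100a13 and among the lowest for S100a1.

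The S100a8 promoter is shown because S100a8 and S100a9 went together in neutrophils. In the monocyte gate, by contrast, 241 cells held S100a8 alone and 9 held both. RefSeq promoter sequences (GRCm38.p6) were at hand for 8 of the 9 genes, and that of S100a10 was missing. The motif TATAAA, searched on the gene's strand in the 100 bases before the start, was found in S100a8, 30 bases before the start, and in S100a4, 31 bases before it, and in 1248 of 32851 promoters in all (3.80%). It was not found in that window of S100a9. The S100a8 stretch, chr3:90668971-90669070 on the plus strand, ends at the base before the start that RefSeq gives. In GENCODE the gene begins at 90668978, inside this stretch, so the motif lies before the start in RefSeq and inside the gene in GENCODE. It is in capitals, as a description and not as a site shown to act.
S100a8: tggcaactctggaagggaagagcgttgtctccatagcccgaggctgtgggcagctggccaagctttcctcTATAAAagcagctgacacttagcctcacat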

How the data were processed

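Single-cell libraries of the mix (2 per group) and of CD11b+ cells (1 per group) were read from 2 deposited tables of raw UMI counts, which the authors made with Cell Ranger 1.3 on mm10, pooling 8 entries per library, dropping cells with over 10% mitochondrial transcripts or under 500 genes and drawing like numbers of cells per group. Still, 446 mix and 189 CD11b+ cells had under 500 genes and were left out. The members and lists were chosen with earlier results of these data known. Cells were placed by the marker gate of at least 3 markers, and ties were left out (598 and 358 cells, beside 1165 and 1909 under 3 markers). UMIs were summed per class and library. Effects (2 libraries against 2) and class levels (classes with at least 10 cells in each library, library as a term) were tested with edgeR 4.0.16 (filterByExpr, TMM, quasi-likelihood, Benjamini-Hochberg over all genes tested) in R 4.3.3. The fits were checked on simulated data, and the outcome is not given here. Shares have exact binomial intervals (95%) from cells thinned to 2000 UMIs, and ratios exact conditional binomial ones, in Python 3.11.15 with scipy 1.17.1. Intervals and the 3-UMI floor cover counting error only. Named were the 9 members, the list genes (binding partners and receptors, other S100 genes, neutrophil markers and granule genes), and per member the 3 genes most like it. Alternatives were DESeq2 1.42.0, no filter, a replicate block, 4 markers, Seurat 5.3.0 clusters without the members, thinned cells, no Scrublet calls (scanpy 1.11.5) and each library left out. Scrublet called 0.871% of mix cells and 0.0181% of CD11b+ cells, too few in the latter for the caller to have worked. Gene positions are from GENCODE on the same build.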

Additional observations from a re-analysis of the deposited data

How the results depend on the processing

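Of 785 alternative values for 94 results, 601 kept direction and side of the threshold (or stayed within the limit for counts), 29 lost a call, 33 gained one, 116 moved and 6 turned. These do not hold every S100 value. Over all values of the 9 genes the sign changed in 60 of 509 effects, 13 of 405 class differences and 33 of 216 interactions with the settings fixed beforehand, and in 3 of 48 effects and 2 of 63 class differences with those chosen after seeing the data. The neutrophil gate was too small for 4 markers, clusters or thinning. S100a8 and S100a9 turned to -0.40 and -0.18 in the neutrophil effect without shSELP 1 (-0.40 to 4.35 and -0.18 to 4.28 over the libraries left out), S100a8 to -0.16 in the monocyte effect without the high cells, and S100a8 in vascular cells against macrophages to -3.39 with classes from clusters, -2.88 without shSELP 1 (-2.88 to 3.41 over the libraries) and -3.14 without the high cells. S100 genes called for shSELP, 0 by edgeR in each gate, were 2 in monocytes and 2 in vascular cells with DESeq2, and with no filter 1, 5, 3, 2 and 4 in neutrophils, monocytes, macrophages, microglia and vascular cells. With the replicate block they were 2 in neutrophils (S100a8 and S100a9, adjusted p = 0.00574 each) and 2 in vascular cells (S100a6 and S100a11), with clusters 2 in macrophages and 1 in microglia, with thinned cells 1 in vascular cells, and 1 each in monocytes without the high cells and in endothelial cells alone. The replicate block pairs libraries by number, and the deviations of same-numbered libraries had a correlation across genes of 0.275, -0.00726, 0.0169, 0.0192, 0.00471, -0.0427 and 0.0946 in neutrophils, monocytes, macrophages, microglia, T, tumor and vascular cells. All genes called for shSELP were 54, 133, 14, 36 and 97 with DESeq2 in macrophages, microglia, T, tumor and vascular cells (by edgeR 18, 348, 3, 6 and 0), and with no filter 14, 213, 518, 708, 275, 387 and 548 in the 7 gates in the same order. With the replicate block they were 3 in neutrophils, 127 in macrophages, 572 in microglia, 1 in T, 112 in tumor and 453 in vascular cells. With 4 markers they were 25 in monocytes and 11 in vascular cells, with clusters 19 in monocytes, 380 in macrophages and 18 in microglia, with thinned cells 8, 0, 22 and 18 in monocytes, macrophages, microglia and vascular cells, without Scrublet calls 23, 1 and 47 in monocytes, T and vascular cells, without the high cells 8 in vascular cells, and 71 in endothelial cells alone. Class differences with clusters were 1939 (monocytes and macrophages) and 4140 (macrophages and microglia), and with thinned cells, where fewer genes are tested, 639, 1189, 3669, 4110 and 3824 from the second comparison on. Interactions with 4 markers were 2 for microglia and 50 for tumor cells. Leaving out each library gave S100 genes called of 0 to 4, 0 to 2, 0 to 1, 0 to 2 and 0 to 1 in the first 5 effects and 0 in tumor and vascular cells, 3 to 6, 4 to 7, 3 to 5, 7, 3 to 4 and 4 to 6 in the class tests, and 0 to 2 and 0 to 1 in the interactions of neutrophils and tumor cells. All genes called then were 0 to 77, 16 to 83, 4 to 149, 122 to 751, 25 to 378, 6 to 402 and 0 to 179 in the effects, 650 to 911, 418 to 744, 1264 to 1896, 5511 to 5887, 6354 to 7025 and 5197 to 6061 in the class tests, and 0 to 33, 0 to 4, 0 to 10, 0 to 4 and 4 to 36 in the interactions. The lone library of a group is then assumed to vary like the other group. TMM scaling moved the CD11b+ ratio of S100a6 in monocytes from 0.548 to 0.515, and with 4 markers that of S100a11 in microglia was 0.336 and that of S100a8 in monocytes 0.647 with an interval spanning 1. At full depth the shares with S100a8 were 19.3% in monocytes, 13.9% in macrophages and 1.10% in T cells, and with S100a9 1.78%, 1.61% and 1.43%. The causes were not tested. Depth limits which genes had an effect test: in neutrophils 5 of 9 S100 genes passed the filter on low counts, and S100a9 passed it in neutrophils and monocytes alone.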
